A study of Mus musculus with 8 samples.

Results

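The genes described here encode the VEGF and angiopoietin system: 4 ligands of the VEGF family (Vegfa, Vegfb, Vegfc and Pgf), 3 receptors or co-receptors of that family (Kdr, Flt1 and Nrp1), the angiopoietins Angpt1 and Angpt2, and their receptor Tek. They were chosen by symbol from a gene-level RNA sequencing table, because Vegfa had been seen to be higher after tamoxifen in these same tumors. All 10 symbols were found among 34586, each with 1 row and no failed estimate. The Vegfa difference is therefore given as a description with no test, and it supports nothing said of the others.

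The RNA came from explanted cecal tumors of C57BL/6 mice that model gastrointestinal stromal tumor (GIST), a Kit-driven tumor of the gut wall whose cells resemble the pacemaker cells there. There were 4 tamoxifen libraries and 4 vehicle libraries, and the comparison asks how expression differs once tamoxifen has been given to ablate Etv1. Both groups shared every allele: Kit V558Delta/+, an activating Kit mutation, Etv1 flox/flox, and Cre-ERT2 on both copies of Rosa26, a locus active in most cell types, so recombination need not be limited to tumor cells. No library came from mice that lacked the floxed alleles and received tamoxifen, so loss of Etv1 and tamoxifen itself cannot be told apart. The labels used here give no dose, duration or age. They do not say whether each replicate was its own mouse, so the p-values cover the spread among these samples, which may be technical.

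Values are FPKM, fragments scaled by transcript length and library size. Absolute depth is unknown. Relative depth, from the value of 1 read in low genes, differed 1.38-fold between libraries, and each library had 14176 to 14841 symbols at 1 FPKM or more. Etv1, the targeted gene, measured 34.9, 19.7, 31.4 and 17.4 FPKM in tamoxifen tumors 1 to 4, against 34.6, 51.1, 40.4 and 38.6 FPKM in vehicle tumors. Tamoxifen tumor 1 lay within the vehicle range (limma adjusted p = 0.13). Gene-level values do not separate intact from recombined Etv1 transcripts, so they do not measure the extent of the ablation. Across all 15023 tested genes, 819 passed limma at an adjusted p under 0.05, or 5.45%, with 358 higher and 461 lower. Scaling every library to the same summed FPKM instead called 228, with 153 higher and 75 lower.

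VEGF-A binds the endothelial tyrosine kinases Kdr (VEGFR2), which carries most of the growth signal, and Flt1 (VEGFR1), which binds the ligand tightly but signals weakly and is also made as a soluble decoy. VEGF-B and placental growth factor bind Flt1, and VEGF-C binds Flt4 (VEGFR3) and Kdr, while neuropilin 1 presents VEGF-A to Kdr. Angiopoietin 1, made largely by cells around vessels, activates Tek (Tie2) and keeps vessels quiet. Angiopoietin 2, made by activated endothelium, opposes it in many settings.

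RefSeq promoter sequences (build GRCm38.p6) were found for 8 of the 10 members. They are shown for the ligand that chose the set and for the 3 other members that passed the test, as the 250 bases before the annotated start, on the strand of the gene. Capitals mark GGAA or its reverse complement TTCC, the core bound by ETS factors, the family of Etv1. The windows are chr17:46032378-46032627 (minus strand) for Vegfa, chr5:147726012-147726261 (minus) for Flt1, chr4:94739039-94739288 (plus) for Tek and chr19:6987652-6987901 (minus) for Vegfb.
Vegfa: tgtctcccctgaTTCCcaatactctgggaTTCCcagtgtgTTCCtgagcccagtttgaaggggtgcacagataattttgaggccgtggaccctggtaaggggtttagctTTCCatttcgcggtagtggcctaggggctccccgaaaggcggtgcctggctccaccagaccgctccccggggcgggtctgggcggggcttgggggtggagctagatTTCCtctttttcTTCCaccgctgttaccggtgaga
Flt1: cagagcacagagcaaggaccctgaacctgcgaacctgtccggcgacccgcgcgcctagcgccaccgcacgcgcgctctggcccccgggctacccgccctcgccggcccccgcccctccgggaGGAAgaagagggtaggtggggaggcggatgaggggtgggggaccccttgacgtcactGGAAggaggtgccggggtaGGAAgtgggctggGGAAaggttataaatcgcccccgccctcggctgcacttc
Tek: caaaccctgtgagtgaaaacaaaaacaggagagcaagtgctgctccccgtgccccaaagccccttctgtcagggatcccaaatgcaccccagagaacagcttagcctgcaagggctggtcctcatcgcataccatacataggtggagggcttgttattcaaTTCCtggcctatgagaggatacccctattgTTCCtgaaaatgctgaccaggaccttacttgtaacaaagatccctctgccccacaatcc
Vegfb: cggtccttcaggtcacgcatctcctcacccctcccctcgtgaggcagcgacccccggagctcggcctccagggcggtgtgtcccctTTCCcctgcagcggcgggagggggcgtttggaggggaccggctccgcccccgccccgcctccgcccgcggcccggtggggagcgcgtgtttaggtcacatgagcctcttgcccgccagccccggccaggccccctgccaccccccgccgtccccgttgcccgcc
The core occurs 6 times in the Vegfa window, 4 times in the Flt1 window, 2 times in the Tek window and 1 time in the Vegfb window. It is common, being found in 93.4% of the 32851 promoter windows of that length. The longer ETS motif CGGAAG (reverse complement CTTCCG), found in 13.6% of windows, is in none of the members' windows. The core of the hypoxia response element, ACGTG (reverse complement CACGT), found in 16.6%, is in none of the windows printed. Its single match among the members lies 211 bases before a second, internal start of Vegfa. A match is a description of letters and not a binding site.

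Vegfa was the most abundant member in tamoxifen tumors, while Vegfb was the most abundant in vehicle tumors. Vegfa (ENSMUSG00000023951, mm9 chromosome 17, 46153942 to 46169326) measured 105, 73.9, 102 and 97.1 FPKM in tamoxifen tumors 1 to 4, against 28.2, 39.2, 37.0 and 37.4 FPKM in vehicle tumors. The lowest tamoxifen tumor was thus well above the highest vehicle tumor. The means were 94.4 ± 14.0 FPKM and 35.4 ± 4.93 FPKM (SD, n = 4 each), a ratio of 2.66 and a log2 fold change of FPKM + 1 of 1.39, which placed Vegfa 293rd from the top of the 15023 tested genes. Leaving out any 1 library gave a log2 fold change between 1.28 and 1.5.

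Vegfb (ENSMUSG00000024962, mm9 chromosome 19, 7056963 to 7062141), a ligand of Flt1 linked to fatty acid handling in muscle and heart, was lower. It measured 28.1, 30.5, 34.5 and 27.5 FPKM in tamoxifen tumors, against 42.9, 44.4, 59.5 and 40.5 FPKM in vehicle tumors, with no overlap. The log2 fold change was -0.61 (SE 0.15, 95% interval -0.94 to -0.28), and Vegfb fell by a narrow margin (limma adjusted p = 0.0497). Leaving out any single library other than tamoxifen replicate 3 ended the call (adjusted p 0.109 at most, with vehicle replicate 3 left out), as did 5 of the 10 other alternatives. As a ratio of levels per length, Vegfa to Vegfb was 2.42 to 3.72 in tamoxifen tumors and 0.621 to 0.922 in vehicle tumors.

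The other ligands were low. Pgf, the Flt1 ligand placental growth factor, measured 2.18, 2.46, 2.25 and 1.6 FPKM in tamoxifen tumors, against 0.871, 0.659, 1.5 and 0.978 FPKM in vehicle tumors. The groups did not overlap, although tamoxifen tumor 4 and vehicle tumor 3 lay close together. The log2 fold change was 0.65 (SE 0.18) and did not pass (limma adjusted p = 0.0724, 95% interval 0.24 to 1.05). Vegfc, which acts mainly on lymphatic vessels, measured 2.63, 3.42, 2.16 and 2.10 FPKM in tamoxifen tumors, against 1.96, 2.47, 1.36 and 2.36 FPKM in vehicle tumors. These ranges overlapped (log2 fold change 0.24, limma adjusted p = 0.482), with a 95% interval of -0.18 to 0.65.

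**Figure D1:**
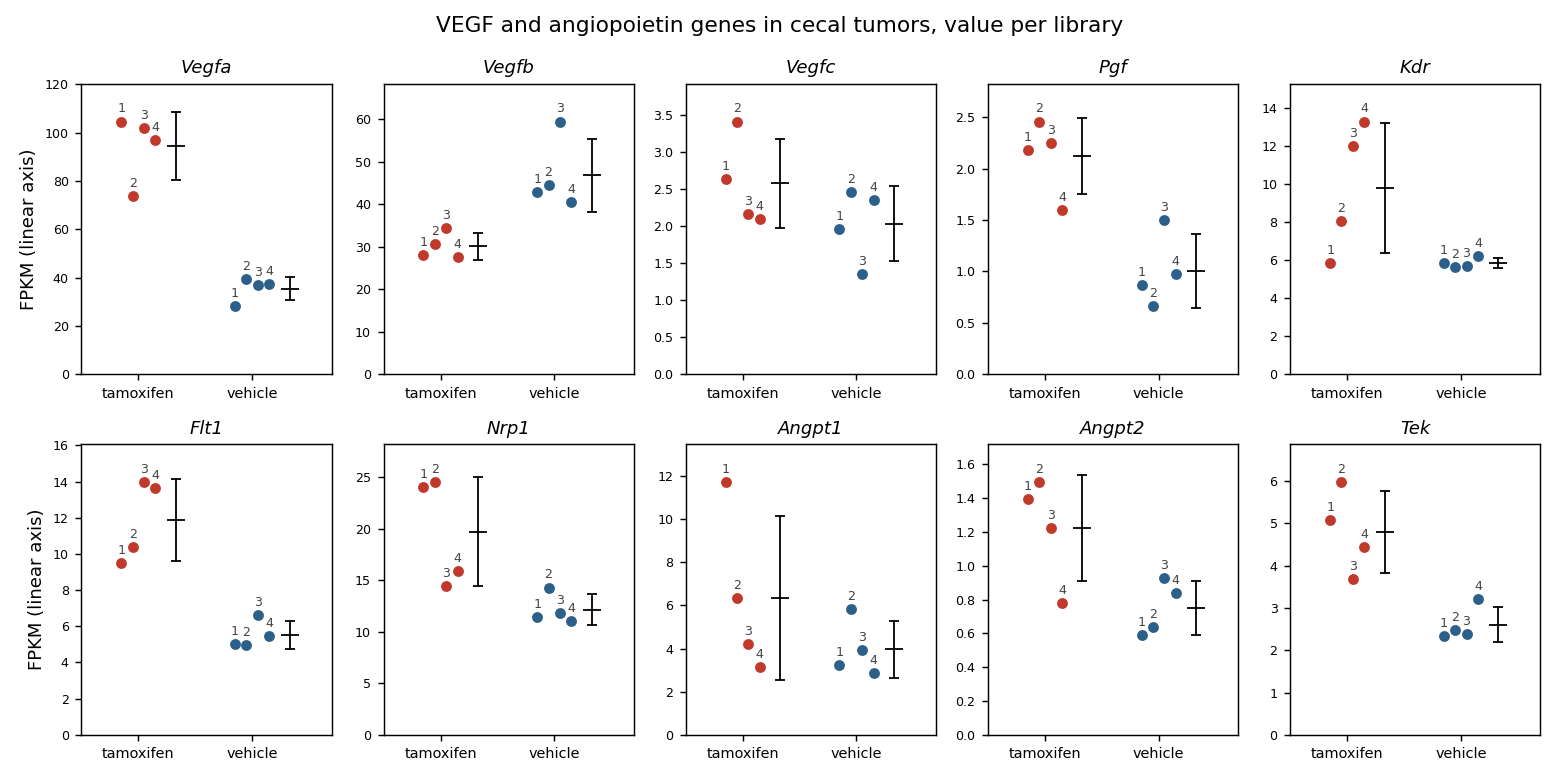
FPKM of each of the 10 genes in each library (linear axes from 0, points numbered by replicate, 4 tamoxifen and 4 vehicle), with the mean and SD beside them. Vegfa and Flt1 show wide gaps between groups, Vegfb is lower in all tamoxifen tumors, and Vegfc, Kdr, Angpt1 and Angpt2 overlap.

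Flt1 was the receptor with the clearest difference. Flt1 (ENSMUSG00000029648, mm9 chromosome 5, 148373180 to 148537587) measured 9.51, 10.4, 14.0 and 13.6 FPKM in tamoxifen tumors, against 5.0, 4.98, 6.64 and 5.44 FPKM in vehicle tumors. Each tamoxifen tumor was above each vehicle tumor. The means of 11.9 ± 2.26 and 5.52 ± 0.781 FPKM (SD, n = 4 each) differ 2.15-fold, and Flt1 rose (log2 fold change 0.97, SE 0.15, 95% interval 0.62 to 1.33, limma adjusted p = 0.015). The call held without each of the 8 libraries in turn (adjusted p up to 0.049) and was lost with scaling to the same summed FPKM (0.0919). Gene-level values do not separate the membrane receptor from the soluble form.

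Kdr (ENSMUSG00000062960, mm9 chromosome 5, 76328852 to 76374483), the main signalling receptor of VEGF-A, was tight in vehicle tumors and scattered in tamoxifen tumors. It measured 5.87, 8.06, 12 and 13.3 FPKM in tamoxifen tumors, against 5.83, 5.65, 5.70 and 6.20 FPKM in vehicle tumors. Tamoxifen tumor 1 was at the vehicle level, while tumors 2, 3 and 4 lay above every vehicle value. The log2 fold change was 0.60 (SE 0.22, 95% interval 0.09 to 1.11) and did not pass (limma adjusted p = 0.157), except without tamoxifen replicate 1 (0.0486). The Kdr to Flt1 ratio was 0.617 to 0.974 in tamoxifen tumors and 0.858 to 1.17 in vehicle tumors, so Flt1 was above Kdr in each tamoxifen tumor, and Kdr was above Flt1 in each vehicle tumor except vehicle tumor 3.

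Nrp1, the co-receptor neuropilin 1, which also binds semaphorins, measured 24.0, 24.5, 14.5 and 15.9 FPKM in tamoxifen tumors, against 11.4, 14.3, 11.8 and 11.0 FPKM in vehicle tumors. The groups were separated, but by only a small gap between tamoxifen tumor 3 and vehicle tumor 2. The log2 fold change was 0.63 (SE 0.19, 95% interval 0.19 to 1.06, limma adjusted p = 0.0957). Nrp1 did pass in the limma fit that adds the number range of the sample identifiers as a term (adjusted p = 0.0276) and in the one that weights libraries by their quality (adjusted p = 0.0413).

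Tek (ENSMUSG00000006386, mm9 chromosome 4, 94405980 to 94541667), the angiopoietin receptor, measured 5.09, 5.97, 3.69 and 4.44 FPKM in tamoxifen tumors, against 2.35, 2.48, 2.39 and 3.21 FPKM in vehicle tumors. All tamoxifen values were above all vehicle values, and vehicle tumor 4 stood apart from its group. Tek rose 1.84-fold (log2 fold change 0.68, SE 0.16, 95% interval 0.32 to 1.03, limma adjusted p = 0.0458). As for Vegfb, only leaving out tamoxifen replicate 3 kept the call among the 8 single-library omissions (adjusted p 0.131 at most, with vehicle replicate 3 left out), and 4 of the 9 other alternatives that could be computed ended it.

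Of the Tek ligands, Angpt1, the agonist, measured 11.7, 6.34, 4.21 and 3.17 FPKM in tamoxifen tumors, against 3.25, 5.82, 3.94 and 2.85 FPKM in vehicle tumors. The higher tamoxifen mean rested largely on tumor 1, and the ranges overlapped (log2 fold change 0.47, SE 0.34, 95% interval -0.32 to 1.26, limma adjusted p = 0.465). Without tamoxifen replicate 1 the log2 fold change was 0.16. Angpt2 measured 1.40, 1.49, 1.23 and 0.781 FPKM in tamoxifen tumors, against 0.592, 0.637, 0.929 and 0.841 FPKM in vehicle tumors. Its mean over the 8 libraries was under the 1 FPKM needed for testing. With no filter its log2 fold change was 0.34 (SE 0.13, limma adjusted p = 0.223). The deposited locus of Angpt2 is shared with Mcph1, at a mean of 1.73 FPKM, so its value is uncertain.

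The balance of the angiopoietins was not distinguishable between groups. Angpt1 was 3.44 to 8.38 times Angpt2 in tamoxifen tumors and 3.38 to 9.14 times in vehicle tumors, on the FPKM scale. The log2 ratio of Angpt2 to Angpt1, with 1 FPKM added to each, averaged -1.6 ± 0.56 in tamoxifen tumors and -1.47 ± 0.42 in vehicle tumors (SD, n = 4 each; exact 2-sided permutation p = 0.629, smallest possible 0.0286).

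**Figure D2:**
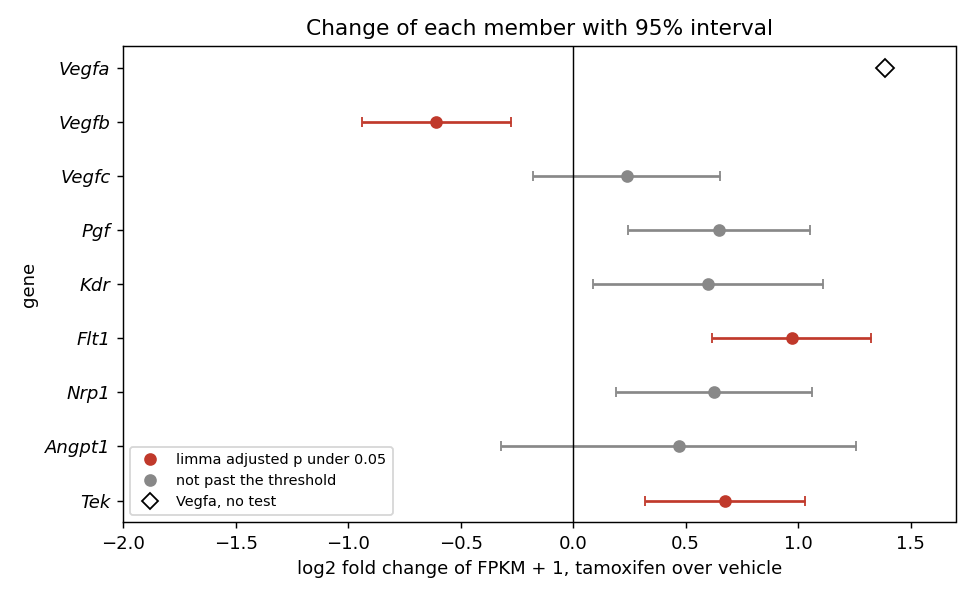
log2 fold change of FPKM + 1, tamoxifen over vehicle, for the 9 members with a mean of at least 1 FPKM, with the 95% interval from limma. Flt1 at 0.97 and Tek at 0.68 rose and Vegfb at -0.61 fell. Vegfa at 1.39 is drawn as an open diamond with no interval because its difference chose the set.

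Counting the 8 tested members other than Vegfa, 2 rose, 1 fell and 5 did not pass. Among all tested genes 5.45% were called, 2.38% higher and 3.07% lower. At an unadjusted limma p under 0.05 stood 6 of the 8, against 22.4% of all tested genes. Groups did not overlap in 5 of the 8 (4 higher, 1 lower), against 15.1% of all tested genes (7.37% higher, 7.74% lower). The median log2 fold change of the 8 was 0.61, and that of all tested genes 0.01. The family was chosen with results of these tumors known, and a low gene enters the test more easily when 1 group is high, so these counts describe the set and are no support for a shared change.

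The order of levels was similar at the low end of both groups. In tamoxifen tumors it ran Vegfa, Vegfb, Nrp1, Flt1, Kdr, Angpt1, Tek, Vegfc, Pgf and Angpt2. The ranges of Flt1 and Kdr, Kdr and Angpt1, Angpt1 and Tek, and Vegfc and Pgf overlapped, so these neighbors are not ordered beyond their spread. In vehicle tumors it ran Vegfb, Vegfa, Nrp1, Kdr, Flt1, Angpt1, Tek, Vegfc, Pgf and Angpt2, and every pair of neighbors from Kdr downward overlapped. Vegfb was above Vegfa in each vehicle tumor and below it in each tamoxifen tumor.

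Among tamoxifen tumors the members split into different patterns. Kdr and Flt1 were highest in tumors 3 and 4, whereas Nrp1, Angpt1, Tek and Vegfc were highest in tumors 1 and 2. The sum of Kdr, Flt1 and Nrp1 therefore varied little, at 39.4 to 42.9 FPKM in tamoxifen tumors and 22.3 to 24.9 FPKM in vehicle tumors. Tamoxifen tumors 1 and 2 carry sample identifiers from the same number range as vehicle tumors 1 to 3, and tamoxifen tumors 3 and 4 from that of vehicle tumor 4. Within the first range, the tamoxifen minus vehicle difference in mean log2(FPKM + 1) was 0.23 for Kdr, 0.75 for Flt1, 0.91 for Nrp1, 0.94 for Tek, 0.89 for Angpt1, 0.47 for Vegfc and -0.71 for Vegfb. Within the second, with 1 vehicle tumor, it was 0.92 for Kdr, 1.2 for Flt1, 0.42 for Nrp1, 0.26 for Tek, 0.28 for Angpt1, -0.10 for Vegfc and -0.39 for Vegfb. Vegfc was the single member of the 10 whose direction differed between the ranges. Vegfa differed by 1.33 in the first range and 1.39 in the second, Pgf by 0.74 and 0.55, and Angpt2 by 0.51 and 0.11. The labels do not say what the identifier range stands for, and its part in the split was not tested.

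Since Kdr, Flt1 and Tek are genes of blood endothelium, their levels were set beside 18 other endothelial genes. Of these, 5 rose and 13 did not pass, with a median log2 fold change of 0.65. For comparison with this and the later lists, 2.38% of all tested genes rose and 3.07% fell. An unadjusted limma p under 0.05 was reached by 22.4% of all tested genes, and in this list by 12 genes higher and 2 lower. In bulk tumors, more cells of a type and more RNA per cell cannot be told apart. Pecam1, the adhesion molecule CD31, measured 25.3, 32.7, 29.6 and 31.8 FPKM in tamoxifen tumors, against 18.3, 13.9, 15.9 and 22.0 FPKM in vehicle tumors (log2 fold change 0.75, limma adjusted p = 0.0335). Sox17, an arterial transcription factor, measured 3.38, 3.26, 3.13 and 3.19 FPKM in tamoxifen tumors, against 0.992, 0.731, 0.892 and 1.51 FPKM in vehicle tumors (1.07, 0.0106). The groups were far apart for Sox17 and closer for Pecam1.

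Emcn, an endothelial sialomucin, rose by a log2 fold change of 0.93 (limma adjusted p = 0.017), Egfl7, a secreted vessel protein, by 1.06 (0.0186) and Clec14a, an endothelial lectin, by 0.79 (0.0284). The locus of Egfl7 overlaps expressed neighbors, so its value is uncertain. The list was not uniform: the largest endothelial genes by level, Eng and Plvap, named after their values were seen, had lower tamoxifen means. Eng, a TGF-beta co-receptor, averaged 154 ± 86.9 FPKM in tamoxifen tumors and 284 ± 79.1 FPKM in vehicle tumors (limma adjusted p = 0.177), and Plvap, a protein of fenestrated capillaries, averaged 61.7 ± 24.5 FPKM in tamoxifen tumors and 113 ± 11.8 FPKM in vehicle tumors (0.104). Both loci overlap expressed neighbors. The summed FPKM of the list was 348 to 656 in tamoxifen tumors and 453 to 646 in vehicle tumors, while its mean log2 level was 3.92 ± 0.20 in tamoxifen tumors and 3.50 ± 0.14 in vehicle tumors (SD, n = 4 each; exact permutation p = 0.0286, adjusted over 8 cell type lists 0.0457), with tamoxifen tumor 1 at 3.635 barely above vehicle tumor 4 at 3.634. With any 1 vehicle library left out, the difference was 0.35 to 0.47 and the exact permutation p 0.0571. The smallest possible p was still 0.0286. Of the 8 single-library omissions, 6 ended the Pecam1 call (adjusted p 0.102 at most), 7 the Clec14a call (0.0813), 3 the Egfl7 call (0.0625) and 2 the Emcn call (0.0586). The highest value came with vehicle replicate 3 left out, or vehicle replicate 2 for Clec14a. The Sox17 call held in all 8.

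Relative to that list, Flt1 had the largest difference of the 4 receptors. None passed after adjustment, which a single receptor could not do even at the smallest possible p. The log2 level of Flt1 minus the list mean averaged -0.25 ± 0.12 in tamoxifen tumors and -0.80 ± 0.20 in vehicle tumors (SD, n = 4 each), with an exact permutation p of 0.0286, the smallest possible, or 0.114 adjusted over 4 receptors. Without tamoxifen replicate 1, 3 or 4 the unadjusted p was 0.0571 by the same exact permutation test. The same measure for Kdr was -0.55 ± 0.31 in tamoxifen tumors and -0.73 ± 0.11 in vehicle tumors (exact permutation p = 0.343, adjusted 0.457). For Tek it was -1.40 ± 0.39 in tamoxifen tumors and -1.66 ± 0.15 in vehicle tumors (exact permutation p = 0.343, adjusted 0.457). For Nrp1 it was 0.42 ± 0.55 in tamoxifen tumors and 0.21 ± 0.30 in vehicle tumors (exact permutation p = 0.571, adjusted 0.571). The list mean takes in 15 genes with positive and 3 with negative log2 fold changes, among the latter Eng at -1.0 and Plvap at -0.96. The Flt1 log2 fold change of 0.97 lay between those of the list genes Emcn at 0.93 and Egfl7 at 1.06.

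**Figure D3:**
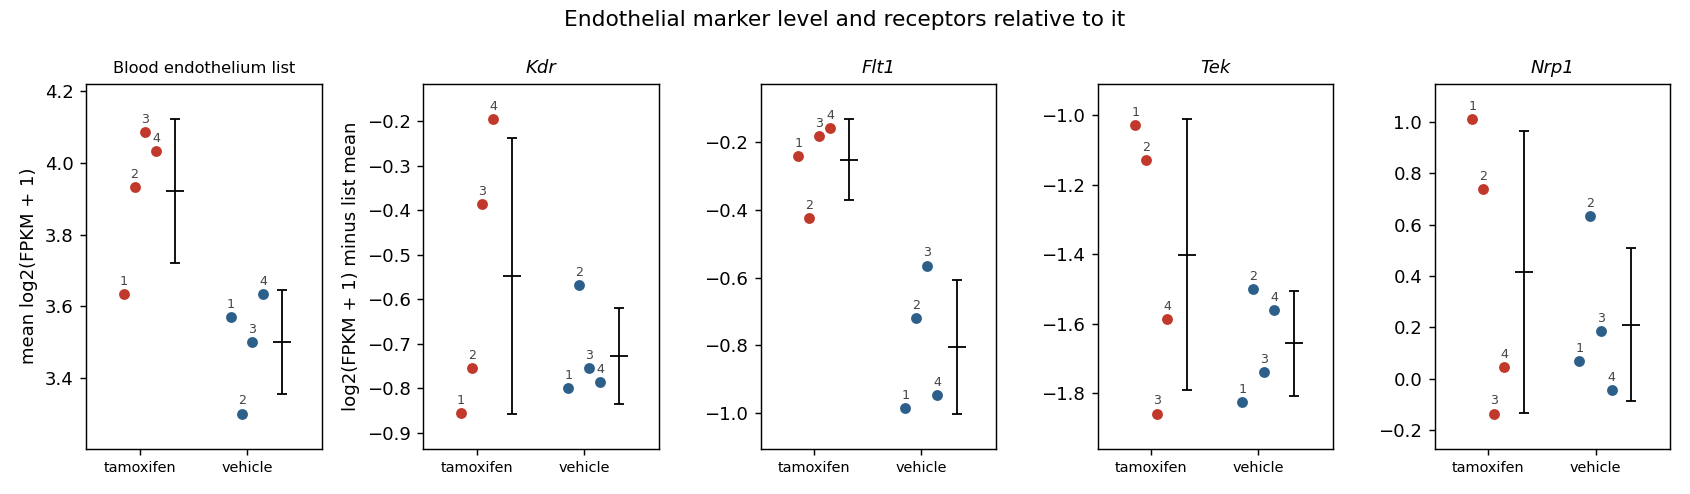
Left, mean log2(FPKM + 1) of 18 blood endothelium genes per library. The other panels plot log2(FPKM + 1) of each receptor minus that mean (points numbered by replicate, 4 tamoxifen and 4 vehicle, mean and SD beside them). The groups separate for Flt1 and overlap for Kdr, Tek and Nrp1.

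Further genes of the pathway gave a mixed picture. Of 12 other ligands and receptors, 11 were tested, of which 1 rose, 1 fell and 9 did not pass, with a median log2 fold change of 0.33. At an unadjusted limma p under 0.05 stood 5 higher and 1 lower. Ptprb, the endothelial phosphatase VE-PTP, which acts on Tek, measured 7.23, 6.47, 7.30 and 7.17 FPKM in tamoxifen tumors, against 3.06, 2.82, 3.29 and 3.50 FPKM in vehicle tumors. It rose (log2 fold change 0.95, limma adjusted p = 0.00653) with tight groups, kept the call without each of the 8 libraries, and lost it with scaling to the same summed FPKM. Flt4, the receptor of VEGF-C and a gene of lymphatic endothelium, measured 18.8, 33.9, 52.7 and 40.0 FPKM in tamoxifen tumors, against 70.0, 85.1, 136 and 82.2 FPKM in vehicle tumors. Flt4 fell (log2 fold change -1.38, limma adjusted p = 0.0465), and all tamoxifen values were below all vehicle values. The Flt4 call likewise ended in 7 of the 8 single-library omissions, the exception being tamoxifen replicate 3 (adjusted p 0.119 at most, with vehicle replicate 3 left out). It also ended in 2 of the 10 other alternatives.

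The lower Flt4 level was not accompanied by a called fall of lymphatic markers. None of the 5 tested lymphatic genes passed limma (Prox1, Lyve1, Pdpn, Mmrn1 and Reln), and 0 had an unadjusted p under 0.05. Their changes were all positive with a median of 0.35, and Ccl21a was listed at 0 in every library. Lyve1, by far the most abundant of them, changed by only 0.009 on the log2 scale (limma adjusted p = 0.991). It averaged 803 ± 430 FPKM in tamoxifen tumors and 712 ± 57.0 FPKM in vehicle tumors. Prox1, the transcription factor that defines lymphatic endothelium, averaged 3.24 ± 1.34 FPKM in tamoxifen tumors and 2.29 ± 0.769 FPKM in vehicle tumors (limma adjusted p = 0.464), far below the level of Flt4. The mean log2 level of the list was 3.72 ± 0.22 in tamoxifen tumors and 3.28 ± 0.24 in vehicle tumors (exact permutation p = 0.0286, adjusted 0.0457), with a difference of 0.44. Leaving out any 1 library gave differences of 0.34 to 0.51. The exact permutation p was then 0.0571 to 0.114, except 0.0286 with tamoxifen replicate 4 left out. Tie1, the partner of Tek, had a log2 fold change of 0.97 with no overlap and did not pass (limma adjusted p = 0.0714), and Angpt4 was too low to test.

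Of 16 genes of VEGF signalling and endothelial response, 15 were tested, of which 0 rose, 1 fell and 14 did not pass in limma (4 higher and 1 lower at an unadjusted p under 0.05), with a median log2 fold change of -0.06. Sh2d2a, an adaptor that binds Kdr and is also found in T cells, measured 2.26, 2.20, 2.79 and 2.43 FPKM in tamoxifen tumors, against 4.53, 4.45, 4.32 and 4.80 FPKM in vehicle tumors. It fell with no overlap (log2 fold change -0.69, limma adjusted p = 0.0156), a call that ended with vehicle replicate 3 or vehicle replicate 4 left out (adjusted p 0.0538 at most). The 4 higher at an unadjusted p under 0.05 were Notch4, an endothelial Notch receptor (log2 fold change 0.62, limma adjusted p = 0.147), Nos3, the endothelial nitric oxide synthase (0.49, 0.103), Nr4a1, an immediate early nuclear receptor (0.41, 0.111), and Efnb2, the arterial ligand ephrin B2 (0.33, 0.161). Groups did not overlap for the last 3. Esm1, a marker of tip cells (0.25, limma adjusted p = 0.465), and Dll4, the Notch ligand of tip cells (0.32, 0.317), overlapped between groups, and Apln was too low to test. The loci of Nos3, Esm1 and Dll4 overlap expressed neighbors. All genes in these sentences but Sh2d2a were named after their values were seen.

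Vegfa is a standard target of the hypoxia factors, and 19 genes of the hypoxia response were therefore set beside it. Of these, 4 rose, 1 fell and 14 did not pass, with a median log2 fold change of 0.48. Among all tested genes 2.38% rose and 3.07% fell. At an unadjusted limma p under 0.05 stood 10 higher and 1 lower, against 22.4% of all tested genes in either direction. Adm, the vasoactive peptide adrenomedullin, measured 5.95, 5.18, 4.25 and 4.85 FPKM in tamoxifen tumors, against 1.74, 1.81, 1.54 and 1.51 FPKM in vehicle tumors. The groups were well apart (log2 fold change 1.19, limma adjusted p = 0.00653). Bnip3, a mitophagy receptor, averaged 15.0 ± 1.58 FPKM in tamoxifen tumors and 8.09 ± 1.23 FPKM in vehicle tumors (0.82, 0.0146).

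Epas1, which encodes the hypoxia factor HIF-2 alpha, is abundant in endothelium, and averaged 30.9 ± 2.97 FPKM in tamoxifen tumors and 19.8 ± 2.02 FPKM in vehicle tumors (log2 fold change 0.62, limma adjusted p = 0.0232). Car9, carbonic anhydrase 9, averaged 20.5 ± 10.4 FPKM in tamoxifen tumors and 6.34 ± 1.88 FPKM in vehicle tumors (1.47, 0.0497), at a locus that overlaps an expressed neighbor. P4ha1, a collagen prolyl hydroxylase subunit, fell (log2 fold change -0.89, limma adjusted p = 0.0199), with 28.4 ± 4.44 FPKM in tamoxifen tumors and 53.5 ± 7.73 FPKM in vehicle tumors. Among those that did not pass, named after their values were seen, Ddit4, an inhibitor of mTOR signalling, had a log2 fold change of 0.97 (limma adjusted p = 0.0737), Kdm3a, a histone demethylase, 0.71 (0.066), Slc2a1, the glucose transporter GLUT1, 0.66 (0.11) and Pdk1, a pyruvate dehydrogenase kinase, 0.58 (0.0917). Groups did not overlap for these 4. The glycolytic enzymes Pgk1 and Ldha had log2 fold changes of -0.10 and 0.26 (limma adjusted p = 0.784 and 0.497). Groups overlapped for Hif1a (log2 fold change 0.66, limma adjusted p = 0.0763), Egln1 (-0.15, 0.637) and Egln3 (-0.12, 0.853). The locus of Slc2a1 overlaps an expressed neighbor. Adm and Bnip3 held without each of the 8 libraries. Single omissions ended the Epas1 call in 4 cases (adjusted p 0.0761 at most, with vehicle replicate 4 left out), the P4ha1 call in 3 (0.0658, vehicle replicate 3) and the Car9 call in 7 (0.13, vehicle replicate 3). Of the 10 other alternatives, 2 ended the Bnip3 call, 2 the Epas1 call, 1 the P4ha1 call and 4 the Car9 call. The 2 for Bnip3 were scaling to the same summed FPKM and the fit with replicate number as a term.

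**Figure D4:**
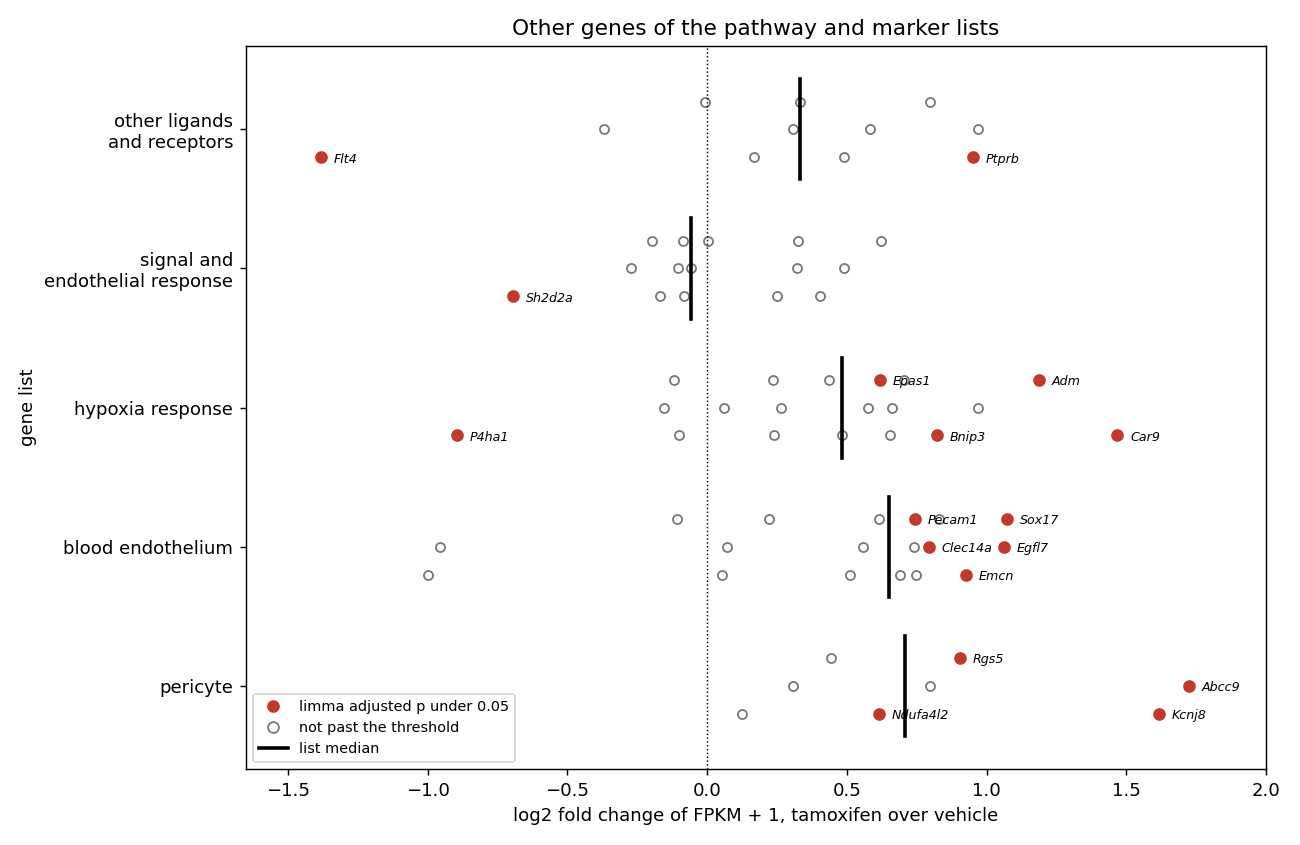
log2 fold change of FPKM + 1, tamoxifen over vehicle, of each tested gene in 5 lists. Filled and named points passed limma at an adjusted p under 0.05, open points did not, and vertical bars mark list medians. Flt4 at -1.38 lies furthest left, Abcc9 at 1.72 furthest right, and the medians are positive except for the signal and endothelial response list at -0.06.

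Pericytes, the mural cells that make angiopoietin 1, were represented by 8 genes, of which 4 rose and 4 did not pass, with a median log2 fold change of 0.71. An unadjusted limma p under 0.05 was found for 5 of the 8, all higher. Abcc9 and Kcnj8, subunits of the vascular ATP-sensitive potassium channel, had the largest changes of the list. Abcc9 measured 14.2, 11.9, 11.2 and 11.3 FPKM in tamoxifen tumors, against 2.65, 4.32, 2.57 and 2.55 FPKM in vehicle tumors (log2 fold change 1.72, limma adjusted p = 0.00463). Kcnj8 averaged 13.5 ± 3.62 FPKM in tamoxifen tumors and 3.65 ± 0.594 FPKM in vehicle tumors (1.62, 0.0074). Rgs5, a regulator of G protein signalling, rose by 0.91 on the log2 scale (limma adjusted p = 0.0289) and Ndufa4l2, a hypoxia-induced mitochondrial protein at a locus that overlaps an expressed neighbor, by 0.62 (0.0396). Single omissions ended these calls in 5 cases (adjusted p 0.085 at most, vehicle replicate 4) and 7 cases (0.108, vehicle replicate 3), while Abcc9 and Kcnj8 held in all 8. Pdgfrb, the receptor that defines mural cells, averaged 15.3 ± 4.79 FPKM in tamoxifen tumors and 12.1 ± 3.59 FPKM in vehicle tumors (limma adjusted p = 0.561). The mean log2 level of the list was 3.22 ± 0.06 in tamoxifen tumors and 2.41 ± 0.07 in vehicle tumors (exact permutation p = 0.0286, adjusted 0.0457).

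Other cell types that can make VEGF-A also differed in their markers. The summed level of 7 neutrophil genes was 180 to 472 FPKM in tamoxifen tumors and 7.5 to 27.5 FPKM in vehicle tumors. Of the 6 tested, 5 had an unadjusted limma p under 0.05, 4 rose and 2 did not pass. These were Mmp8, with no overlap (log2 fold change 1.03, limma adjusted p = 0.176), and the receptor Csf3r, with overlap (0.17, 0.858). Cxcr2 was too low to test, so the neutrophil list was not uniform. The sum of 8 intestinal epithelium genes was 926 to 2211 FPKM in tamoxifen tumors and 456 to 739.9 FPKM in vehicle tumors. Of the 8, 1 passed limma and 6 had an unadjusted p under 0.05. Both lists gave an exact permutation p of 0.0286 for their mean log2 level, adjusted 0.0457. With any 1 vehicle library left out the epithelial difference was 0.78 to 1.01, against 0.93 with all, and its exact permutation p 0.0571. None of 8 macrophage genes, 6 smooth muscle genes or 6 GIST genes passed limma (2, 1 and 3 had an unadjusted p under 0.05), and their mean levels did not pass either (adjusted permutation p = 0.486, 0.486 and 0.0762). Summed levels in tamoxifen and vehicle tumors were 579 to 1270 and 641 to 960.2 FPKM for macrophages, 223 to 303 and 155 to 282 FPKM for smooth muscle, and 984 to 1403 and 1221 to 1792 FPKM for GIST genes. The GIST list also holds Etv1, the targeted gene. Kit, the receptor that drives these tumors, was expressed in both groups. Kit averaged 447 ± 82.1 FPKM in tamoxifen tumors and 760 ± 161 FPKM in vehicle tumors. The groups overlapped, and Kit did not pass (log2 fold change -0.75, limma adjusted p = 0.0674). The part of each cell type in the Vegfa and receptor values was not tested.

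The genes whose profiles over the 8 libraries lay nearest to Vegfa, by the root mean square difference of mean-centered log2(FPKM + 1) among 12598 genes, were Synpo2, an actin-binding protein of muscle (0.18), Myzap, a junction protein of heart and endothelium (0.20), and the mitochondrial tRNA gene mt-Ta (0.21), whose FPKM is unreliable at so short a length. For scale, Vegfa itself varied by 0.72 around its mean. Those nearest to Kdr were Pmm1, a phosphomannomutase (0.13), Podxl, the sialomucin podocalyxin of podocytes and endothelium (0.13), and Ccdc3 (0.14), where Kdr varied by 0.42. These are descriptions over 8 libraries in 2 groups, so any gene with a similar group difference comes near.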

How the data were processed

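The 8 libraries, 4 tamoxifen and 4 vehicle, are RNA sequencing of cecal tumors of mice, with groups and replicate numbers from the sample titles and columns matched by the identifier in the sample descriptions. The deposited table holds FPKM and a status for each gene and library, and its columns are those Cuffdiff writes, per the file headers. STAR 2.3, Cufflinks, Cuffdiff and mm9 are named in the submitters' processing notes. Annotation, scaling between libraries and strandedness were not stated. Status entries and FPKM were the deposited columns used. A total of 178 failed or HIDATA values were treated as missing, and rows were summed per symbol, giving 34586 symbols.

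Symbols with a mean of at least 1 FPKM and at least 2 estimates per group, 15023 in all, were compared on log2(FPKM + 1) by limma 3.58.1 under R 4.3.3, using moderated statistics with a variance trend, 2-sided p-values, Benjamini-Hochberg adjustment over all tested symbols and a threshold of 0.05. Fold changes on this scale understate the change of low genes. For measures with 1 value per library, an exact permutation test (2-sided) ran over all 70 arrangements. The procedure was tested on simulated data. The 10 members and all gene lists were chosen with earlier results of these data known. The text names every member, Etv1, genes of 5 lists (other ligands and receptors, signal and endothelial response, hypoxia, blood endothelium, pericyte) that passed, and 3 genes nearest in profile to Vegfa and to Kdr; other list genes were named after their values were seen. Loci start at 1 and are those of the deposited table, which gives overlapping genes a shared locus. Promoter motifs were searched on both strands in RefSeq windows, and GGAA was added with the data known. Alternatives were other pseudocounts, filters, scalings, covariates, variance models, weights and leaving out each library.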

Additional observations from a re-analysis of the deposited data

Results flagged for a closer look

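Of 30 groups of 4 values examined (each member and each log2 ratio, in each group), 1 held a sample far from the others, where chance flags about 1 in 20. Tek in vehicle tumor 4 measured 3.21 FPKM, while the other vehicle tumors measured 2.35, 2.48 and 2.39 FPKM. Without that library the log2 fold change of Tek was 0.75 (limma adjusted p = 0.0708), against 0.68 with it.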

How the results depend on the processing

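No member changed direction in any of the alternatives computed. The count of genes called, 819 as reported, was 1207 with library quality weights, 990 with the identifier range as covariate and 913 with robust variance moderation. It was 534 with a mean of at least 5 FPKM, 228 with scaling to the same summed FPKM and 252 with the replicate block, and lay between 268 and 856 without 1 library. Members other than Vegfa called, 3 as reported, were 4 with library quality weights and 2 with the identifier range as covariate. They fell to 1 with no filter, with a mean of at least 5 FPKM and with the replicate block, and to 0 with scaling to the same summed FPKM, and lay between 1 and 3 without 1 library. With that last scaling, 14 of 20 called genes named here were lost, Flt1 included. Ighj1 and Ighj4, very short segments, hold 5.42% to 54.6% of the summed FPKM it uses. With the mean of at least 5 FPKM, Vegfc, Pgf and Tek could not be computed.

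Samples of equal replicate number showed no clear shared deviation (correlations of -0.16, -0.00, 0.14 and 0.06 across genes). Samples of unequal number gave -0.15 to 0.15. Pairing by number was thus not seen, but these correlations cannot exclude it. The replicate block ended 11 of the 20 named calls. Under it the sign-flip test over 4 pairs cannot go below 0.125: the differences stay at 0.55 for Flt1 over endothelial markers and at 0.42, 0.44, 0.82, 2.73 and 0.93 for the mean levels of the blood endothelium, lymphatic, pericyte, neutrophil and epithelium lists, none past the threshold.

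The log2 ratio of Angpt2 to Angpt1 changed sign with pseudocounts of 0.1 and 0.25 FPKM (0.0782 and 0.0149), without tamoxifen replicate 1 (0.14) and without vehicle replicate 4 (0.0058), and lay between -0.33 and 0.14 without 1 library. The lymphatic list no longer passed with those pseudocounts (differences of 0.58 and 0.55, unadjusted exact permutation p of 0.0857 and 0.0571). The unadjusted p of the blood endothelium, pericyte, neutrophil and epithelium lists stayed at 0.0286. Passing after adjustment over the cell type lists needs the lymphatic list at 0.0286 as well. With those pseudocounts none of these lists therefore passed after adjustment. Without 1 library, differences were 0.49 to 0.63 for Flt1 over endothelial markers and 0.35 to 0.52 for blood endothelium. They were 0.34 to 0.51 for lymphatic endothelium and 0.65 to 1.10 for epithelium. With 1 library left out an unadjusted p of 0.0286 was still possible, and the pericyte and neutrophil lists stayed at it. The cause of the lost calls, judged on the unadjusted p, was not tested. Depth is unknown, so precision of the low genes Pgf, Vegfc and Angpt2 cannot be given beyond their spread.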
